A study of Mus musculus with 14 samples.

Results

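The 43 genes described here are nuclear genes whose proteins copy, package, transcribe and translate mitochondrial DNA (mtDNA) in the mouse. They were chosen by gene symbol from a list of known factors, proposed with earlier results of these data known, and all 43 were found in both count tables, which share 16417 genes (18076 genes in the table of GV oocytes and 16903 in that of ovulated oocytes). By role, 5 were classed under replication of mtDNA, 7 under its packaging or transcription and 6 under stability or processing of its RNA. A further 9 were classed as translation factors and 16 as mitochondrial aminoacyl-tRNA synthetases. The classes are broad. Mterf4 and Tfb1m, described below by roles in mitochondrial ribosome (mitoribosome) assembly and rRNA methylation, stand under packaging or transcription. Eral1, a mitoribosome assembly factor, stands under RNA. All oocytes came from mice with both Clpx alleles floxed. The WT groups carry Clpxfl/fl alone, and the CKO groups carry Clpxfl/fl with Zp3-Cre, a recombinase gene under a promoter that is active in growing oocytes, so the deletion is limited to the oocyte. RNA was profiled in germinal vesicle (GV) oocytes, which are arrested in meiotic prophase, from 4 WT and 4 CKO libraries, and in ovulated oocytes, which have resumed meiosis, from 3 WT and 3 CKO libraries. Libraries were made with SMART-Seq2, which copies RNA from its poly(A) tail. The age and strain of the mice, the number of oocytes in a library and whether replicates came from separate animals were not given, so p-values measure the spread between these libraries only. Each stage has its own table, so stage cannot be told apart from any difference between the preparations of the tables.

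Mammalian mtDNA is a small circle that encodes proteins of the respiratory chain and the ribosomal and transfer RNAs needed to make them, while every factor that replicates or reads it is made from nuclear genes and imported. A dedicated polymerase and helicase copy the circle, and the packaging protein TFAM coats it and binds its promoters. A phage-like RNA polymerase transcribes the circle, and a bacterial-type set of factors and charging enzymes translates its messages. Oocytes hold far more mtDNA than other cells and build that store while they grow. Fully grown oocytes are transcriptionally silent and, on resuming meiosis, degrade many stored messages while lengthening the poly(A) tails of others. CLPX is the unfoldase that feeds proteins to the mitochondrial matrix protease CLPP, and ERAL1, an assembly factor of the small mitoribosomal subunit and 1 of the genes described here, is a known substrate of that protease.

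Clpx itself was read first, as a check of the labels. Clpx stood at 58.1, 39.6, 40.0 and 39.6 CPM (counts per 1e+06 library counts) in the GV WT libraries and at 0.676, 0.940, 1.36 and 1.44 in the GV CKO libraries. It stood at 19.1, 18.5 and 17.0 CPM in ovulated WT and at 0.465, 0.575 and 0.269 in ovulated CKO libraries. Every CKO library lay far below every WT library of its stage, by 40.2-fold in GV oocytes (adjusted p = 6.48e-06) and 41.8-fold in ovulated oocytes (adjusted p = 0.00123, edgeR quasi-likelihood tests). The 14 libraries held between 25086506 and 28471453 counts. All 12 listed oocyte genes averaged at least 1 CPM in every group, and their summed level ran from 26530 to 41020 CPM in GV WT, 24040 to 52350 in GV CKO, 11360 to 15880 in ovulated WT and 11980 to 14240 in ovulated CKO libraries. Of 17 listed granulosa and cumulus genes, 5, 4, 8 and 3 averaged 1 CPM or more in the same groups in that order, with summed levels of 53.9 to 68.8, 43.03 to 67.4, 64.6 to 128.5 and 65.5 to 107.1 CPM, most of it from Cyp19a1. Ovulated WT replicate 3 stood above the other ovulated libraries in several of them, with Tnfaip6 at 12.07 CPM (0 to 1.23 in the others), Gja1 at 6.29 (0 to 1.73), Fst at 5.37 (0 to 0.987), Inhba at 3.38 (0 to 0.496) and Ptgs2 at 2.40 (0 to 0.921). It was not the highest in Cyp19a1, Kitl, Has2 or Nr5a2, and in Nr5a2 it was the lowest, at 10.11 CPM (11.97 to 17.16 in the others). Its summed level, 126.2 CPM, was below the 128.5 of ovulated WT replicate 1. Amh and Foxl2, defining genes of granulosa cells, were not listed in the ovulated table and did not exceed 0.1105 CPM in any GV library. The listed genes of theca, stroma, endothelium and blood, 12 in all, summed to 21.3 to 45.6 CPM in GV and 46.3 to 109.1 CPM in ovulated libraries, nearly all from Pecam1. Cdh5, Ptprc and Lyz2 did not exceed 0.184 CPM in any library that listed them, while Dcn reached 9.03 and Star 2.33 CPM. The part of these other-cell markers in the results was not tested.

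The promoters of these genes were searched for the letters bound by regulators known for nuclear genes of mitochondrial proteins: NRF1 (GCGCANGCG), the ETS factor GABPA (CCGGAAG) and YY1 (ATGGCGG), each on both strands, in the 250 bases before and 50 after each RefSeq start (build GRCm38.p6). Of the 43 genes, 39 had a promoter there, the others being Hars2, Mterf3, Mtif3 and Pars2. The ETS letters were in 16 of 39 (41.03%), against 9.93% of the 27025 genes with a promoter and 19.06% of the 10592 of those that were tested across stages. The NRF1 letters were in 9 of 39 (23.08%, against 7.03% and 14.47%) and the YY1 letters in 8 of 39 (20.51%, against 4.69% and 8.62%). For 11 of the 39 (Aars2, Mtif2, Mtrf1l, Nars2, Pnpt1, Polg, Supv3l1, Tars2, Tefm, Tfam and Wars2) each start in the table lies over 250 bases inside the gene's RefSeq range, so the stretch searched is that of an internal start. Polrmt and Tufm, which fell at ovulation, and Gfm1, which rose, all held the ETS letters, so a match went with either direction. A match of letters is a description of the sequence and not of a bound factor. The Polrmt promoter is shown because this gene had the lowest fold change of the group between the stages in WT oocytes and holds both ETS and NRF1 letters. The stretch ends at the base before the start, and the last capitals begin a pair of overlapping NRF1 matches that run on past it.
Polrmt, chr10:79746582-79746831, minus strand: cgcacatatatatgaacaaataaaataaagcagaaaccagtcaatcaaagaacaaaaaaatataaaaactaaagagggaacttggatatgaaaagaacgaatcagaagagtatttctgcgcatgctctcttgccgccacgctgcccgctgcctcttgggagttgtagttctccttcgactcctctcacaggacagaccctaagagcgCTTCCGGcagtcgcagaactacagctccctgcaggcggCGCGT
Windows of 30 bases around single matches follow for the packaging protein, the single-strand binding protein and the RNA-binding protein Slirp, which have per-library values below, with the ETS motif, or its reverse complement, in capitals. The starts used lie 284 bases inside the RefSeq range of Tfam, 54 inside that of Ssbp1 and at the 5′ end of that of Slirp. The 250 bases before them also hold annotated exon, 236, 116 and 250 bases of it in the same order, so these windows are not all outside transcribed sequence.
Tfam, ETS letters from base -47, chr10:71238073-71238102, minus strand: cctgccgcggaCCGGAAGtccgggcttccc
Ssbp1, ETS letters from base -47, chr6:40471410-40471439, plus strand: ggctccgtgcgCCGGAAGcgagccgctggc
Slirp, ETS letters from base -146, chr12:87443739-87443768, plus strand: aagcggaaaagCTTCCGGaaagcatcctct
Slirp, ETS letters from base -48, chr12:87443837-87443866, plus strand: aacagtttggcCCGGAAGcagaactcgaaa
Slirp, ETS letters from base -11, chr12:87443866-87443895, plus strand: attccggctctggcaggttCTTCCGGggtc

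Levels between genes were compared per transcript length, as FPKM (fragments per kilobase of transcript and 1e+06 fragments). In GV WT oocytes the median of the 43 genes was 6.49 FPKM, against 3.61 over all genes tested across stages, and 36 of the 43 averaged 1 FPKM or more. The corresponding medians were 5.03 in GV CKO (all genes 3.14), 3.76 in ovulated WT (3.45) and 3.16 in ovulated CKO (4.11), with 35, 27 and 27 of the 43 at 1 FPKM or more. The isoleucyl-tRNA synthetase gene Iars2 stood above every other gene of the group in all 4 groups, with means of 1028 and 1170.0 FPKM in WT and CKO oocytes at the GV stage and 128 and 122 once ovulated, and it ranked 100 of the 16417 genes in GV WT. Below it in GV WT oocytes came Mterf4, which pairs with an rRNA methyltransferase in assembly of the mitoribosome's large subunit, at 186 FPKM, and Slirp, at 145. The Slirp value rests on a short length: its FPKM and count together imply 184 bases, so its level per length is uncertain. At the other end, Hars2, the histidyl-tRNA synthetase, averaged 0.0575 FPKM in GV WT, and Mars2, Vars2 and Aars2 averaged 0.100, 0.235 and 0.248. The charging enzymes therefore spanned both the highest and the lowest level of the group.

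**Figure D1:**
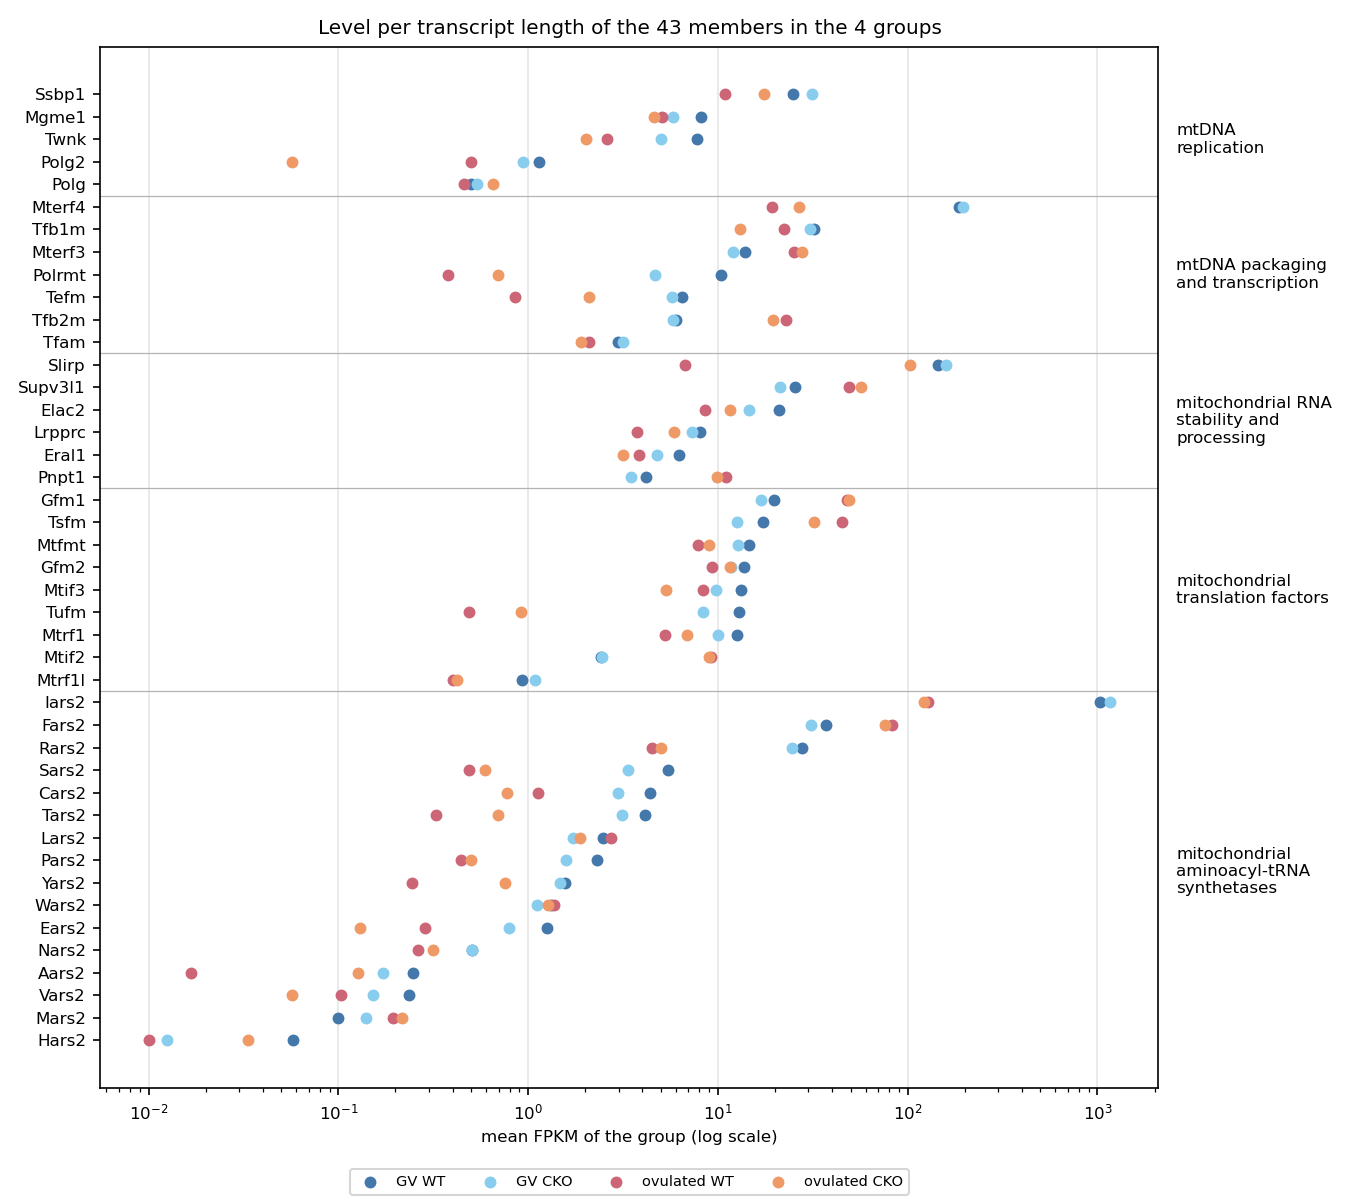
Mean FPKM (log axis) of each of the 43 genes in the 4 groups of oocytes (blue for GV, red and orange for ovulated), ordered within each role by the level in GV WT. Iars2 lies farthest right in all 4 groups, and for most genes the 2 ovulated points lie left of the 2 GV points.

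Within the replication class, Ssbp1, the single-strand DNA-binding protein of mtDNA, had the highest level (24.9 FPKM in GV WT) and Polg, the catalytic subunit of the mtDNA polymerase, the lowest (0.498). Among packaging and transcription genes the order ran from Mterf4 down to Tfam, the packaging protein, at 2.98 FPKM. The RNA class ran from Slirp to Pnpt1, the RNA-degrading polynucleotide phosphorylase, at 4.19. The translation factors ran from Gfm1, an elongation factor, at 19.8 to Mtrf1l, a release factor, at 0.925. Iars2 and Hars2 bounded the synthetases.

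Between the GV and ovulated stages most of these genes fell, with libraries scaled by TMM (the trimmed mean of M-values). In WT oocytes 27 of 42 tested genes were lower in ovulated oocytes (64.3%, against 34% of all 13158 genes tested) and 5 were higher (11.9%, against 29.7%), at an adjusted p under 0.05 by edgeR's quasi-likelihood test. In CKO oocytes 25 of 42 were lower (59.5%, against 29.9% of all genes) and 6 were higher (14.3%, against 25.8%). The median log2 fold change of the 42 genes was -1.23 in WT and -1.25 in CKO oocytes, against -0.08 and -0.14 over all genes tested. Hars2 had too few counts to be tested. Polg2, Aars2 and Vars2 entered these tests through their GV libraries, being too low for a test within the ovulated stage, and without them the counts were 5 higher and 25 lower of 39 in WT (12.8% and 64.1%) and 6 higher and 23 lower in CKO oocytes (15.4% and 59%). The shares over the 11478 genes tested within both stages were 32.2% higher and 33.5% lower in WT, and 28.5% and 30.1% in CKO oocytes. Values of CPM are relative to the rest of each library, so less RNA per oocyte and fewer copies of a single message cannot be told apart from these data. The libraries were copied from poly(A) tails, so changes in tail length and in copies of a message cannot be told apart either. A gene that fell or rose did so in CPM. With libraries scaled to their total counts instead, the median of all genes moved by 0.34 in WT and 0.59 in CKO oocytes on the log2 scale, and the higher share of all calls from 46.6% to 56% and from 46.3% to 67.5%. The counts of these genes became 6 higher and 20 lower in WT and 8 higher and 16 lower in CKO oocytes, and their median then lay -1.19 and -1.05 from that of all genes, against -1.15 and -1.11 with TMM. Under total counts Tfam, Gfm2, Mgme1, Mtrf1l and Vars2 had no call in either genotype, nor had Lrpprc and Tfb1m in WT or Elac2, Eral1, Mtfmt and Mtrf1 in CKO oocytes. Supv3l1 was then called higher in WT, and Fars2 and Mterf3 in CKO oocytes.

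**Figure D2:**
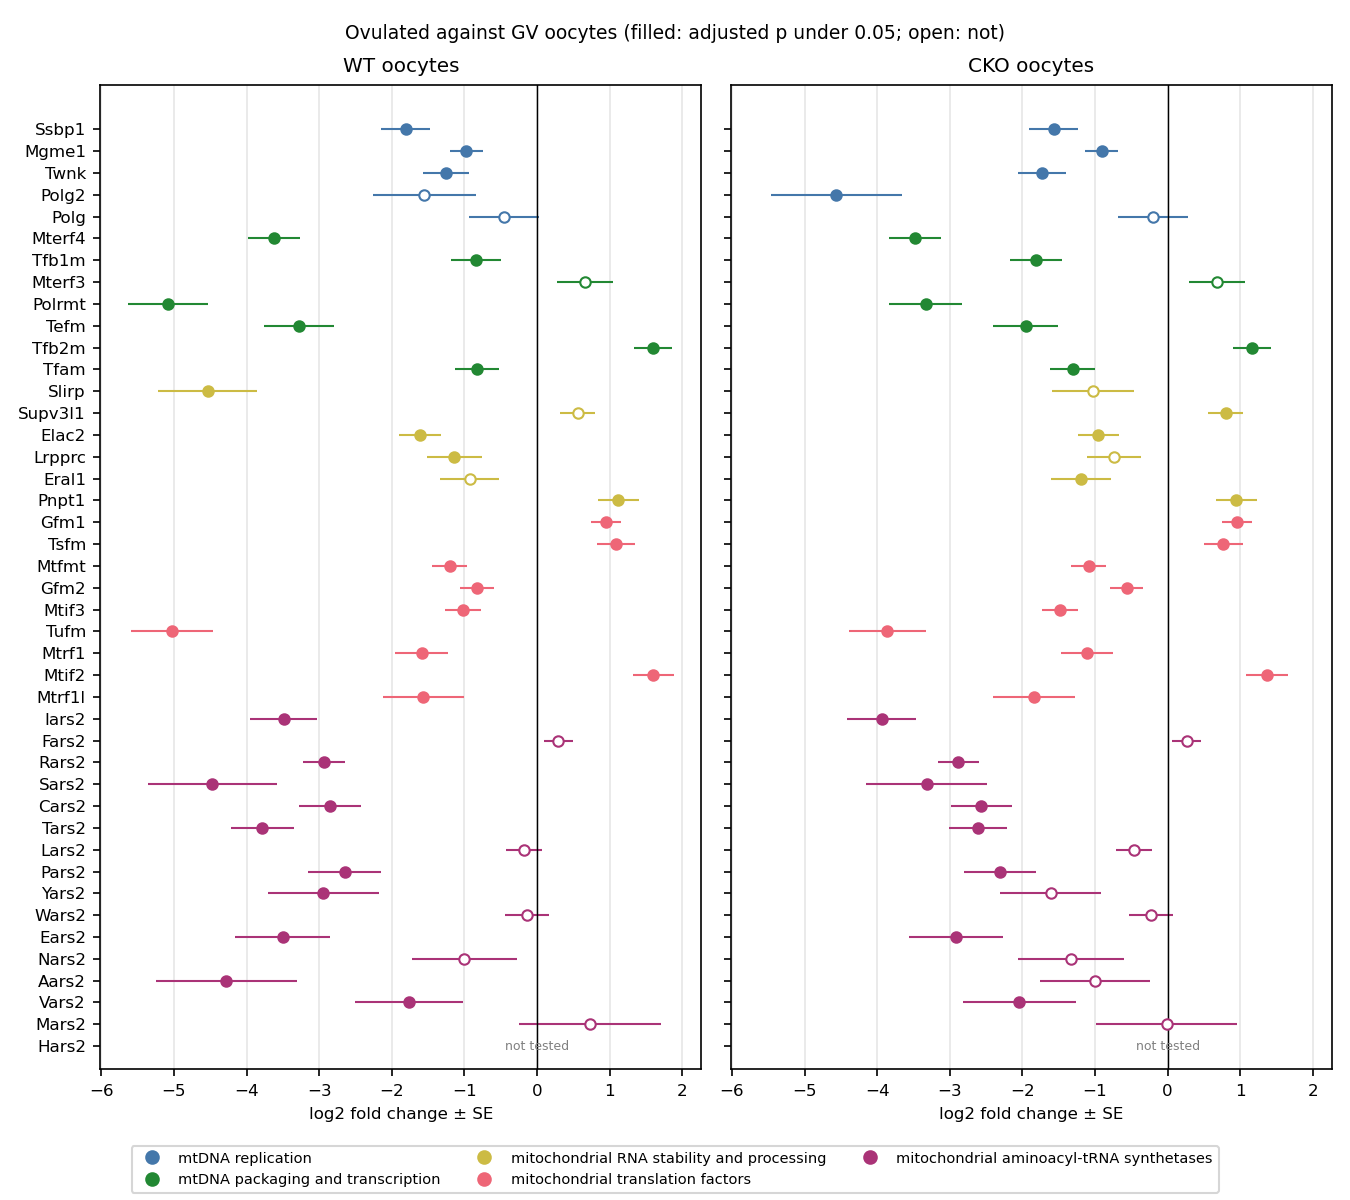
Log2 fold change between ovulated and GV oocytes (x axis, ± SE) of each gene in WT (left) and CKO oocytes (right), coloured by role, with filled points for an adjusted p under 0.05 and open points otherwise. Most filled points lie left of 0 in both panels. The 5 that lie right of 0 in WT oocytes are Tfb2m, Pnpt1, Gfm1, Tsfm and Mtif2, and Supv3l1 joins them in CKO oocytes.

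Of the 4 replication genes with enough counts at both stages, 3 fell in each genotype (75%, against 33.5% of all such genes in WT and 30.1% in CKO oocytes) and none was higher, while Polg2 is described apart. The replicative helicase gene Twnk measured 18.2, 11.9, 14.9 and 10.3 in GV WT, 11.5, 10.4, 7.90 and 12.0 in GV CKO, 5.74, 4.23 and 7.40 in ovulated WT and 2.39, 4.33 and 2.69 CPM in ovulated CKO libraries. Every ovulated library lay below every GV library of its genotype, with log2 fold changes (± SE here and below) of -1.25 ± 0.32 (adjusted p = 0.00261) in WT and -1.73 ± 0.33 (adjusted p = 3.47e-04) in CKO oocytes by edgeR. Of the exon bases of Twnk, 12.6% are also exon of Mrpl43 on the opposite strand, a gene that was lower in ovulated oocytes too (log2 -4.22 in WT and -2.40 in CKO). Ssbp1 measured 27.7, 37.0, 29.1 and 30.2 in GV WT, 47.9, 39.9, 44.7 and 39.7 in GV CKO, 8.61, 7.15 and 10.8 in ovulated WT and 25.3, 9.65 and 8.48 CPM in ovulated CKO libraries. It fell by the same test at -1.81 ± 0.34 (adjusted p = 2.25e-04) in WT and -1.57 ± 0.33 (adjusted p = 8.66e-04) in CKO oocytes. Ovulated CKO replicate 1 was the highest of the ovulated libraries, though below every GV library. A processed pseudogene, Gm12115, is 97.3% identical to Ssbp1 over 38.6% of its transcript, so a share of its counts is uncertain.

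Polg, the polymerase itself, measured 3.78, 3.28, 3.55 and 2.31 in GV WT, 6.47, 3.32, 3.12 and 2.82 in GV CKO, 0.673, 4.43 and 1.96 in ovulated WT and 2.98, 4.25 and 3.06 CPM in ovulated CKO libraries. The stages overlapped in both genotypes, and the log2 differences of -0.45 ± 0.48 in WT (adjusted p = 0.424) and -0.20 ± 0.48 in CKO oocytes (adjusted p = 0.740) did not pass edgeR's test. Without ovulated WT replicate 2, the highest library of its group, the WT value was -1.34 (adjusted p = 0.0245). Its exons share 8.6% of their bases with the opposite-strand gene Fanci. The accessory subunit gene Polg2 measured 1.65, 1.58, 1.81 and 1.31 in GV WT, 1.31, 1.63, 1.54 and 1.66 in GV CKO, 0, 1.02 and 0.575 in ovulated WT and 0.0310, 0.0822 and 0.0673 CPM in ovulated CKO libraries. All 3 ovulated CKO libraries were close to 0, while the ovulated WT libraries spread from 0 to 1.02 CPM. The edgeR log2 fold change was -4.56 ± 0.90 (adjusted p = 4.75e-04) in CKO oocytes and -1.55 ± 0.71 (adjusted p = 0.0659) in WT oocytes, and at such low counts both have wide errors. Without ovulated WT replicate 2 the WT value was -2.48 (adjusted p = 0.0147). Summed over libraries, 136 GV and 6 ovulated counts in CKO oocytes gave a ratio of 25.02 (exact 95% interval 11.2 to 69.4, counting error only), and 168 and 52 counts in WT oocytes gave 2.86 (2.08 to 3.98). Mgme1, an exonuclease that trims replication ends, fell in both genotypes, from means of 22.4 and 17.97 CPM in GV oocytes of WT and CKO to 11.4 and 9.56 in ovulated WT and CKO.

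Among the 7 genes classed under packaging and transcription, 5 fell (71.4%) and 1 rose (14.3%) in each genotype. Those that fell include Mterf4 and Tfb1m, described here by roles in mitoribosome assembly and rRNA methylation. Over all genes tested 34% fell and 29.7% rose in WT, and 29.9% and 25.8% in CKO oocytes. Polrmt, the mitochondrial RNA polymerase whose promoter is printed above, measured 53.9, 49.4, 21.4 and 32.9 in GV WT, 23.0, 16.9, 17.4 and 22.2 in GV CKO, 0.779, 0.408 and 2.30 in ovulated WT and 2.92, 1.62 and 1.38 CPM in ovulated CKO libraries. Every ovulated library lay below 3 CPM and every GV library above 16, a fall of 33.9-fold in WT (log2 -5.08 ± 0.55, adjusted p = 2.15e-06) and 10.1-fold in CKO oocytes (log2 -3.33 ± 0.50, adjusted p = 5.63e-05) by edgeR. Mterf4 measured 180.0, 255, 178 and 276 in GV WT, 238, 294, 230.5 and 276 in GV CKO, 11.9, 18.03 and 24.3 in ovulated WT and 31.6, 26.3 and 12.0 CPM in ovulated CKO libraries, and fell with log2 fold changes of -3.62 ± 0.36 (adjusted p = 1.25e-06) and -3.48 ± 0.36 (adjusted p = 3.89e-06) in WT and CKO oocytes by edgeR. Its neighbour Sned1, whose exons overlap 35.2% of the GENCODE exon bases of Mterf4 on the opposite strand but none within the RefSeq range, was higher in ovulated oocytes in both genotypes (log2 1.04 in WT and 1.58 in CKO).

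Tfam measured 12.7, 8.73, 14.3 and 9.45 in GV WT, 11.0, 9.85, 17.4 and 17.4 in GV CKO, 4.68, 7.59 and 6.90 in ovulated WT and 5.74, 5.97 and 5.15 CPM in ovulated CKO libraries. The ovulated libraries were all lower than the GV libraries of their genotype, at log2 -0.82 ± 0.30 (adjusted p = 0.0253) in WT and -1.31 ± 0.31 (adjusted p = 0.00189) in CKO oocytes by edgeR. This is a small fall beside that of Polrmt, and neither call held with total counts (edgeR adjusted p = 0.311 in WT and 0.160 in CKO oocytes). The call in WT oocytes was also lost without ovulated WT replicate 1 (0.125) or 3 (0.0531) or GV WT replicate 1 (0.0574), 3 (0.0725) or 4 (0.0509). Tfb2m, the factor that opens the promoter together with the polymerase, went the other way. It measured 13.0, 16.6, 12.9 and 15.2 in GV WT, 15.3, 17.1, 15.6 and 13.0 in GV CKO, 52.6, 27.1 and 50.8 in ovulated WT and 29.4, 28.3 and 44.5 CPM in ovulated CKO libraries. Each ovulated library exceeded each GV library, by 3.02-fold in WT (log2 1.59 ± 0.26, adjusted p = 7.39e-05) and 2.23-fold in CKO oocytes (log2 1.16 ± 0.26, adjusted p = 0.00142), by edgeR. The unprocessed pseudogene Gm1818 is 99.3% identical to Tfb2m over 48.5% of its transcript. The elongation factor gene Tefm fell in WT and CKO oocytes (log2 -3.27 and -1.95), as did Tfb1m, an rRNA methyltransferase (log2 -0.84 and -1.82). The Tfb1m call in WT oocytes held in 1 of 7 fits with a library left out, that without ovulated WT replicate 3, whose 39.1 CPM lay inside the GV range. It was lost without GV WT replicate 1 (adjusted p = 0.0564), 2 (0.0781), 3 (0.0515) or 4 (0.109) and without ovulated WT replicate 1 (0.167) or 2 (0.115). Mterf3, a terminator-family protein, had log2 differences of 0.66 and 0.68 that did not pass, though the CKO value passed with total counts, by limma on FPKM, with the replicate block and without GV CKO replicate 3, and the WT value without ovulated WT replicate 2.

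**Figure D3:**
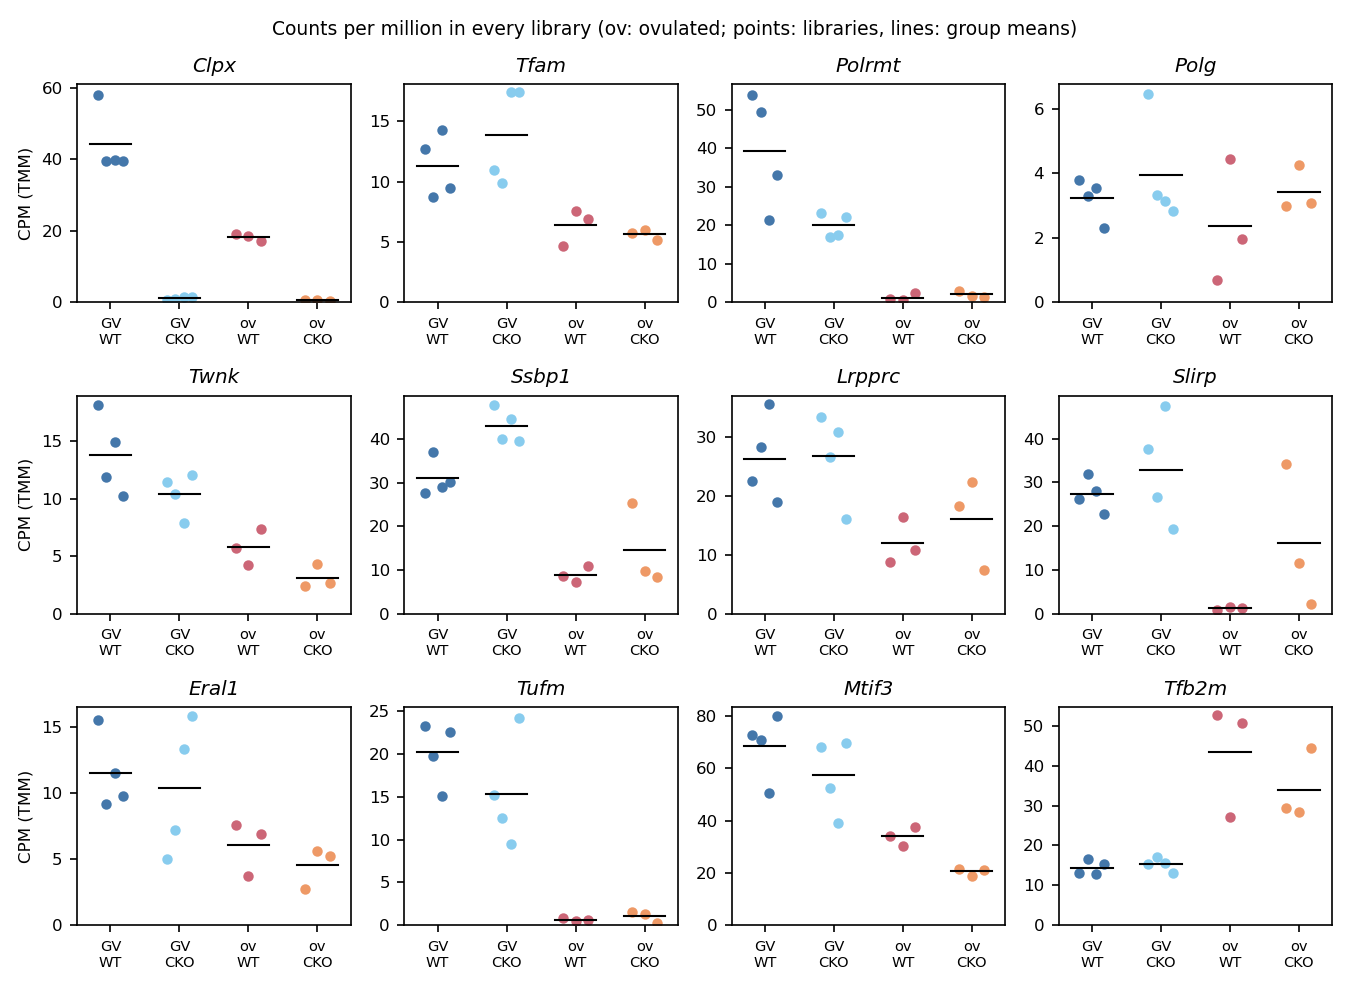
CPM in each library (points, linear axes from 0) with the group means (lines) for Clpx and 11 of the genes, by stage and genotype. Polrmt and Tufm lie near 0 in all ovulated libraries, Tfb2m is higher in ovulated than in GV libraries, and Slirp is near 0 in the 3 ovulated WT libraries but spread over 2.26 to 34.3 CPM in the ovulated CKO libraries.

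Of the 6 RNA genes, 3 fell and 1 rose in WT oocytes (50% and 16.7%, against 34% and 29.7% of all genes tested), and 2 fell and 2 rose in CKO oocytes (33.3% each, against 29.9% and 25.8%). Lrpprc, which holds mitochondrial messages stable and polyadenylated in a complex with SLIRP, measured 22.5, 28.5, 35.6 and 19.0 in GV WT, 33.6, 26.7, 30.9 and 16.1 in GV CKO, 8.86, 16.4 and 10.8 in ovulated WT and 18.3, 22.4 and 7.37 CPM in ovulated CKO libraries. Its log2 fold change was -1.14 ± 0.38 (adjusted p = 0.0145) in WT and -0.74 ± 0.37 (adjusted p = 0.0983) in CKO oocytes by edgeR. The call in WT oocytes rested on single libraries: the adjusted p was 0.0737 without ovulated WT replicate 1 and 0.0550 without replicate 3. In CKO oocytes the fall passed without ovulated CKO replicate 2 (0.0445). Slirp measured 26.2, 32.0, 28.0 and 22.9 in GV WT, 37.7, 26.5, 47.4 and 19.3 in GV CKO, 0.815, 1.43 and 1.25 in ovulated WT and 34.3, 11.6 and 2.26 CPM in ovulated CKO libraries. In WT oocytes it fell 23.2-fold (log2 -4.54 ± 0.68, adjusted p = 3.12e-05), with all ovulated libraries under 1.5 CPM. In CKO oocytes the 3 ovulated libraries differed by over 10-fold among themselves, the highest lay inside the GV range, and the log2 fold change of -1.03 ± 0.56 did not pass (edgeR adjusted p = 0.128). Without ovulated CKO replicate 1 it was -2.21 (adjusted p = 0.00297).

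Pnpt1 and Supv3l1 encode the nuclease and the helicase of the complex that degrades mitochondrial RNA. Pnpt1 measured 12.3, 9.54, 10.8 and 10.3 in GV WT, 7.23, 12.1, 12.8 and 8.34 in GV CKO, 30.4, 16.3 and 23.3 in ovulated WT and 21.9, 14.2 and 22.4 CPM in ovulated CKO libraries, and rose by log2 1.12 ± 0.28 (adjusted p = 0.00257) in WT and 0.95 ± 0.28 (adjusted p = 0.00960) in CKO oocytes by edgeR. Every ovulated library lay above every GV library. Supv3l1 measured 60.6, 74.9, 44.9 and 87.1 in GV WT, 52.2, 57.4, 56.5 and 79.6 in GV CKO, 104, 93.6 and 97.4 in ovulated WT and 89.2, 124 and 107 CPM in ovulated CKO libraries. The ovulated libraries again exceeded all GV libraries, and the log2 fold change of 0.80 ± 0.24 (adjusted p = 0.0104) passed in CKO oocytes, while that of 0.56 ± 0.24 (adjusted p = 0.0541) in WT oocytes lay just outside the threshold. Without GV WT replicate 4 the WT value passed (adjusted p = 0.0167), and without ovulated CKO replicate 2 the CKO value did not (0.0530). Elac2, the nuclease that cuts the 3′ ends of mitochondrial tRNAs, fell in both genotypes (log2 -1.61 and -0.95), the CKO call being lost without GV CKO replicate 4 (adjusted p = 0.0804) or ovulated CKO replicate 1 (0.0509). Eral1, the CLPXP substrate, measured 15.5, 9.16, 11.5 and 9.75 in GV WT, 5.03, 7.18, 13.3 and 15.8 in GV CKO, 7.55, 3.68 and 6.90 in ovulated WT and 2.73, 5.59 and 5.25 CPM in ovulated CKO libraries. Its edgeR log2 fold change was -1.19 ± 0.41 (adjusted p = 0.0221) in CKO and -0.93 ± 0.41 (adjusted p = 0.0570) in WT oocytes, so the values are close although 1 passed and the other did not. The call in CKO oocytes was lost without GV CKO replicate 3 (adjusted p = 0.0574) or 4 (0.130) or ovulated CKO replicate 1 (0.102).

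Of the 9 translation factors, 6 fell (66.7%) and 3 rose (33.3%) in each genotype, and the same 3 rose in both. Over all genes tested 34% fell and 29.7% rose in WT, and 29.9% and 25.8% in CKO oocytes. The share that rose was thus near that of all genes. Tufm, which delivers charged tRNAs to the mitoribosome, measured 23.3, 19.8, 15.1 and 22.6 in GV WT, 15.2, 12.5, 9.44 and 24.3 in GV CKO, 0.815, 0.467 and 0.575 in ovulated WT and 1.58, 1.34 and 0.202 CPM in ovulated CKO libraries. It fell 32.6-fold in WT (log2 -5.03 ± 0.57, adjusted p = 3.01e-06) and 14.6-fold in CKO oocytes (log2 -3.86 ± 0.53, adjusted p = 2.73e-05) by edgeR, and no ovulated library reached 2 CPM. The processed pseudogene Gm9755 is 99.9% identical to Tufm over 80.8% of its transcript, so how the counting shared reads between them is uncertain. Tsfm, the exchange factor that recharges the TUFM protein, moved in the opposite direction. It measured 20.2, 16.9, 14.7 and 17.6 in GV WT, 15.1, 12.2, 12.5 and 18.6 in GV CKO, 31.3, 30.4 and 48.7 in ovulated WT and 17.98, 24.1 and 32.4 CPM in ovulated CKO libraries. Its edgeR log2 fold change was 1.08 ± 0.27 (adjusted p = 0.00199) in WT, where the stages did not overlap, and 0.77 ± 0.27 (adjusted p = 0.0213) in CKO oocytes, where the ovulated minimum of 17.98 lay below the highest GV library. The call in CKO oocytes was lost without ovulated CKO replicate 3 (adjusted p = 0.136) and without GV CKO replicate 3 (adjusted p = 0.0549).

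Gfm1, which moves the mitoribosome along the message, measured 48.6, 54.4, 41.2 and 58.6 in GV WT, 42.5, 46.0, 48.8 and 56.3 in GV CKO, 108, 88.4 and 96.3 in ovulated WT and 82.3, 89.9 and 109.7 CPM in ovulated CKO libraries. It rose by log2 0.94 ± 0.21 (adjusted p = 8.05e-04) in WT and 0.96 ± 0.21 (adjusted p = 9.46e-04) in CKO oocytes by edgeR, with every ovulated library above 80 CPM and no GV library above 60. Mtif2, the factor that brings the initiator tRNA to the mitoribosome, measured 6.68, 9.29, 6.32 and 6.33 in GV WT, 7.90, 7.23, 8.64 and 7.57 in GV CKO, 27.0, 14.9 and 23.3 in ovulated WT and 15.4, 16.6 and 28.7 CPM in ovulated CKO libraries. Its log2 fold change of 1.60 ± 0.29 (adjusted p = 1.49e-04) in WT was the highest of the group, and it was 1.37 ± 0.29 (adjusted p = 7.58e-04) in CKO oocytes, with no overlap of the stages. The partner initiation factor Mtif3 fell instead. It measured 72.9, 70.8, 50.5 and 80.2 in GV WT, 68.0, 52.5, 38.9 and 69.7 in GV CKO, 34.1, 30.1 and 37.6 in ovulated WT and 21.4, 18.9 and 21.2 CPM in ovulated CKO libraries, and its log2 fold changes were -1.02 ± 0.25 (adjusted p = 0.00183) and -1.48 ± 0.25 (adjusted p = 1.42e-04) in WT and CKO oocytes by edgeR. Of the exon bases of Mtif3, 29.4% are also exon of Gtf3a on the opposite strand, a gene that was lower in ovulated oocytes too. Gtf3a ran from 22.8 to 32.9 CPM in GV WT, 15.3 to 26.7 in GV CKO, 5.42 to 9.50 in ovulated WT and 5.25 to 8.17 in ovulated CKO libraries.

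Of the termination factors, Mtrf1l measured 2.76, 2.30, 1.88 and 2.81 in GV WT, 4.48, 1.98, 2.39 and 3.81 in GV CKO, 0.425, 1.58 and 0.439 in ovulated WT and 1.24, 1.12 and 0.269 CPM in ovulated CKO libraries. It fell at log2 -1.57 ± 0.56 (adjusted p = 0.0223) in WT and -1.84 ± 0.56 (adjusted p = 0.0108) in CKO oocytes by edgeR, at levels of a few CPM at most. The call in WT oocytes was lost without GV WT replicate 2 (adjusted p = 0.0523) or 4 (0.0718) or ovulated WT replicate 1 (0.101) or 3 (0.0993). Mtrf1 fell as well (log2 -1.59 and -1.11 in WT and CKO, the CKO call being lost without GV CKO replicate 1, at 0.0624, or ovulated CKO replicate 3, at 0.0518), as did Mtfmt, the formyltransferase that marks the initiator tRNA (log2 -1.20 and -1.09). Gfm2, a ribosome recycling factor, fell by a smaller amount (log2 -0.83 and -0.56). Its CKO call held in 1 of 7 fits with a library left out, that without ovulated CKO replicate 2. It was lost without GV CKO replicate 1 (adjusted p = 0.0628), 2 (0.134), 3 (0.103) or 4 (0.187) and without ovulated CKO replicate 1 (0.0992) or 3 (0.149), and with total counts the CKO value turned to 0.04 (0.924). Initiation, elongation and termination each held genes that fell, and those that rose were Mtif2 of initiation and Tsfm and Gfm1 of elongation.

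The synthetases, which charge mitochondrial tRNAs with their amino acids, had no member that rose by edgeR with TMM. Of the 13 with enough counts at both stages, 8 fell in WT (61.5%, against 33.5% of all such genes) and 7 in CKO oocytes (53.8%, against 30.1%), with medians of -2.85 and -2.31 on the log2 scale. Iars2 measured 3616, 5814, 3476 and 6726 in GV WT, 6250.0, 7409, 3495 and 8114 in GV CKO, 309, 746 and 255 in ovulated WT and 449, 463 and 324 CPM in ovulated CKO libraries. The highest ovulated library, at 746 CPM, lay far below the lowest GV library, at 3476, a fall of 11.2-fold in WT (log2 -3.49 ± 0.46, adjusted p = 1.03e-05) and 15.3-fold in CKO oocytes (log2 -3.94 ± 0.47, adjusted p = 9.99e-06) by edgeR. Its opposite-strand neighbour Rab3gap2, which shares 22.9% of the GENCODE exon bases of Iars2 and 1.7% of those in the RefSeq range, rose in WT and CKO oocytes (log2 1.33 and 1.38). Sars2, the seryl enzyme, measured 12.6, 7.50, 4.90 and 9.80 in GV WT, 6.05, 5.10, 3.45 and 6.57 in GV CKO, 0, 0.671 and 0.473 in ovulated WT and 0.961, 0.603 and 0 CPM in ovulated CKO libraries. Its edgeR log2 fold change was -4.47 ± 0.88 (adjusted p = 3.62e-04) in WT and -3.32 ± 0.83 (adjusted p = 0.00302) in CKO oocytes.

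Aars2, the alanyl enzyme, measured 0.822, 0.511, 0.658 and 0.904 in GV WT, 0.803, 0.544, 0.221 and 0.829 in GV CKO, 0, 0 and 0.101 in ovulated WT and 0.527, 0.219 and 0.135 CPM in ovulated CKO libraries. It fell in WT oocytes (log2 -4.28 ± 0.97, adjusted p = 0.00112), where 2 of the 3 ovulated libraries had 0 counts, and its value of -1.005 ± 0.76 (adjusted p = 0.269) in CKO oocytes did not pass edgeR's test. All libraries were below 1 CPM. The 75 GV and 3 ovulated counts in WT oocytes gave a ratio of 22.1 (exact 95% interval 7.28 to 109.6, counting error only), and the 51 and 29 counts in CKO oocytes gave 1.94 (1.21 to 3.18). Hars2 measured 0.230, 0, 0.230 and 0.0502 in GV WT, 0.0423, 0.0990, 0 and 0 in GV CKO, 0, 0 and 0.0676 in ovulated WT and 0, 0.137 and 0 CPM in ovulated CKO libraries and was at or near 0 throughout. Rars2, the arginyl enzyme, fell from means of 49.0 and 48.7 CPM to 6.41 and 6.61 (log2 -2.93 and -2.88 in WT and CKO). Cars2, Ears2, Pars2 and Tars2 fell in both genotypes, with log2 fold changes from -3.79 to -2.65 in WT and from -2.92 to -2.31 in CKO oocytes. Vars2, tested through its GV libraries, was at -1.76 in WT and -2.04 in CKO oocytes. Its WT call was lost without GV WT replicate 1 (adjusted p = 0.0740), 3 (0.147) or 4 (0.0565) or ovulated WT replicate 1 (0.145) or 2 (0.135). Its CKO call was lost without GV CKO replicate 1 (0.0770), 2 (0.0632) or 4 (0.0605) or ovulated CKO replicate 2 (0.0783) or 3 (0.118). Yars2 fell in WT oocytes alone by call (log2 -2.94, against -1.61 in CKO). Fars2, Lars2, Mars2, Nars2 and Wars2 passed edgeR's test in neither genotype, with log2 differences from -1.001 to 0.73 in WT and from -1.33 to 0.26 in CKO oocytes. Fars2, the phenylalanyl enzyme, was called higher in CKO oocytes with total counts (log2 0.83, adjusted p = 0.0235) and in both by limma on FPKM (1.12 in WT and 1.29 in CKO). It was next to Iars2 in level in ovulated WT oocytes, at 83.2 FPKM in WT and 75.8 in CKO oocytes.

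Set side by side, the WT and CKO stage changes had the same sign for 41 of the 42 genes, the exception being Mars2 (0.73 and -0.01 on the log2 scale). In all, 28 passed in both genotypes, 23 lower and 5 higher. Of all 13158 genes tested, 34% were called lower and 29.7% higher in WT, and 29.9% and 25.8% in CKO oocytes. Lrpprc, Slirp, Aars2 and Yars2 passed in WT only and Polg2, Supv3l1 and Eral1 in CKO only, while 7 passed in neither. These lists depend on the method: Supv3l1, Polg2 and Eral1 also passed in WT oocytes with DESeq2 and limma-voom, and in CKO oocytes Yars2 passed with both, Slirp with limma-voom and Lrpprc with the replicate block. The difference between genotypes in the stage change passed edgeR's test for none of them. Across the 42 genes the changes in the genotypes had a Pearson correlation of 0.83. They come from different libraries, fitted together with a shared estimate of the spread, and the genes are not independent replicates. The shared signs, joint calls and correlation were not computed over all genes. They are therefore not shown to be particular to these genes.

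Other genes of the pathway numbered 86, of which 83 were found in the tables. Of 79 tested, 20 were higher and 39 lower in ovulated WT oocytes (25.3% and 49.4%, against 29.7% and 34% of all genes, median log2 -0.90). In ovulated CKO oocytes 18 were higher and 39 lower (22.8% and 49.4%, against 25.8% and 29.9%, median -1.16), so the higher share was near that of all genes in both. In WT oocytes the split was 4 higher and 6 lower of 14 genes of mtDNA replication, repair and nucleotide supply, 9 and 14 of 30 of RNA processing, 4 and 8 of 17 of mitoribosome assembly, 2 and 8 of 11 further translation factors, and 1 and 3 of 7 nuclear regulators. In CKO oocytes it was 4 and 5, 6 and 15, 4 and 9, 1 and 8, and 3 and 2 in the same order. Tk2, the thymidine kinase that supplies mtDNA precursors, fell from means of 91.7 and 81.8 CPM in WT and CKO at the GV stage to 5.50 and 11.4 in ovulated WT and CKO oocytes (log2 -4.06 and -2.84). Dna2, a nuclease and helicase of the replication fork, rose from 12.3 and 11.3 to 37.5 and 42.96 CPM (log2 1.61 and 1.93). Nrf1, a regulator whose letters were searched above, fell from 156 and 134 to 33.3 and 40.8 CPM (log2 -2.23 and -1.71). Its coactivator gene Ppargc1b rose (log2 2.09 and 1.70). Of the other regulators searched for, Gabpa ran from 0.465 to 2.28 CPM in GV and from 0 to 0.465 in ovulated libraries. Yy1 ran from 1.51 to 4.74 and from 3.04 to 8.11 CPM in the same order.

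The remaining pathway genes chosen for display fell on both sides. Ptcd2, an RNA-binding pentatricopeptide protein, fell (log2 -3.25 in WT and -2.77 in CKO), while Rexo2, an RNA exonuclease, rose (log2 1.83 and 1.30). Rpusd3, an RNA pseudouridine synthase family gene, and Mtg1, a GTPase of mitoribosome assembly, fell (log2 -4.21 and -2.89 in WT, -3.22 and -2.91 in CKO). Oxa1l, the insertase for proteins leaving the mitoribosome, and Rmnd1 fell too (log2 -2.71 and -3.26 in WT, -1.95 and -2.61 in CKO).

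The libraries were primed on the poly(A) tail, so the 3′ ends of the genes were described as well. Tail lengthening in oocytes depends on cytoplasmic polyadenylation elements, searched here as TTTTAT or TTTTAAT in the last 100 bases of the GENCODE transcript. Of the 38 tested members with a 3′ UTR of at least 100 bases, 7 held an element (18.42%), against 19.79% of all genes tested. Over all genes the share was 28.37% among those higher and 11% among those lower in ovulated WT oocytes. Their 3′ UTRs differed in other ways too, with a median GC content of 40.87% among those higher and 46.48% among those lower. The median 3′ UTR lengths were 1308 and 541.5 bases in the same order. The part of base composition in these shares was not tested. Of the 7, Pnpt1 and Supv3l1 had positive stage differences, Ssbp1, Mgme1, Elac2 and Gfm2 fell, and Mars2 passed in neither genotype. Among the members the element was in 1 of 5 that rose and in 4 of 25 that fell. The median 3′ UTR of the members was 369 bases, against 895 over all genes tested. Sites of Ssbp1, a gene that fell, and of Pnpt1 and Supv3l1 are shown with the element in capitals, since these genes had opposite directions. The sites differ in position: the element begins 10 bases from the transcript's end in Ssbp1, 54 in Pnpt1 and 84 in Supv3l1. The part of position was not tested.
Ssbp1: aaatgctattaaaattcatcTTTTAATgag
Pnpt1: taaggatcttTTTTATaccttccttctctt
Supv3l1: ttgtttgtttTTTTAATtgcacaaaaaagt

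Loss of Clpx was compared within each stage. In GV oocytes none of the 42 tested genes passed at an adjusted p under 0.05 by edgeR, where 3 of all 12265 genes did (0.0245%). At an unadjusted p under 0.05 there were 3 of 42, against 704 of all genes, and DESeq2, limma-voom and limma on FPKM called 0 as well. The median log2 difference was -0.08, against 0.02 over all genes, 15 genes were higher and 27 lower, and all 42 lay within 1 on the log2 scale with a median SE of 0.25. In ovulated oocytes none of 39 passed, against 1 of 12044 genes (0.0083%), with 2 of 39 and 935 of all genes at an unadjusted p under 0.05. DESeq2 called 1 gene there, Slirp, and limma-voom and limma on FPKM called 0. The median difference was 0.02, against 0.00 over all genes, 36 of the 39 lay within 1 on the log2 scale, and the median SE was 0.43, so a difference of a given size was harder to detect in ovulated oocytes. Total-count scaling moved the median of all genes by -0.16 in GV and 0.09 in ovulated oocytes. Values for Polg2, Aars2, Vars2 and Hars2 were too low to be tested in ovulated oocytes.

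**Figure D4:**
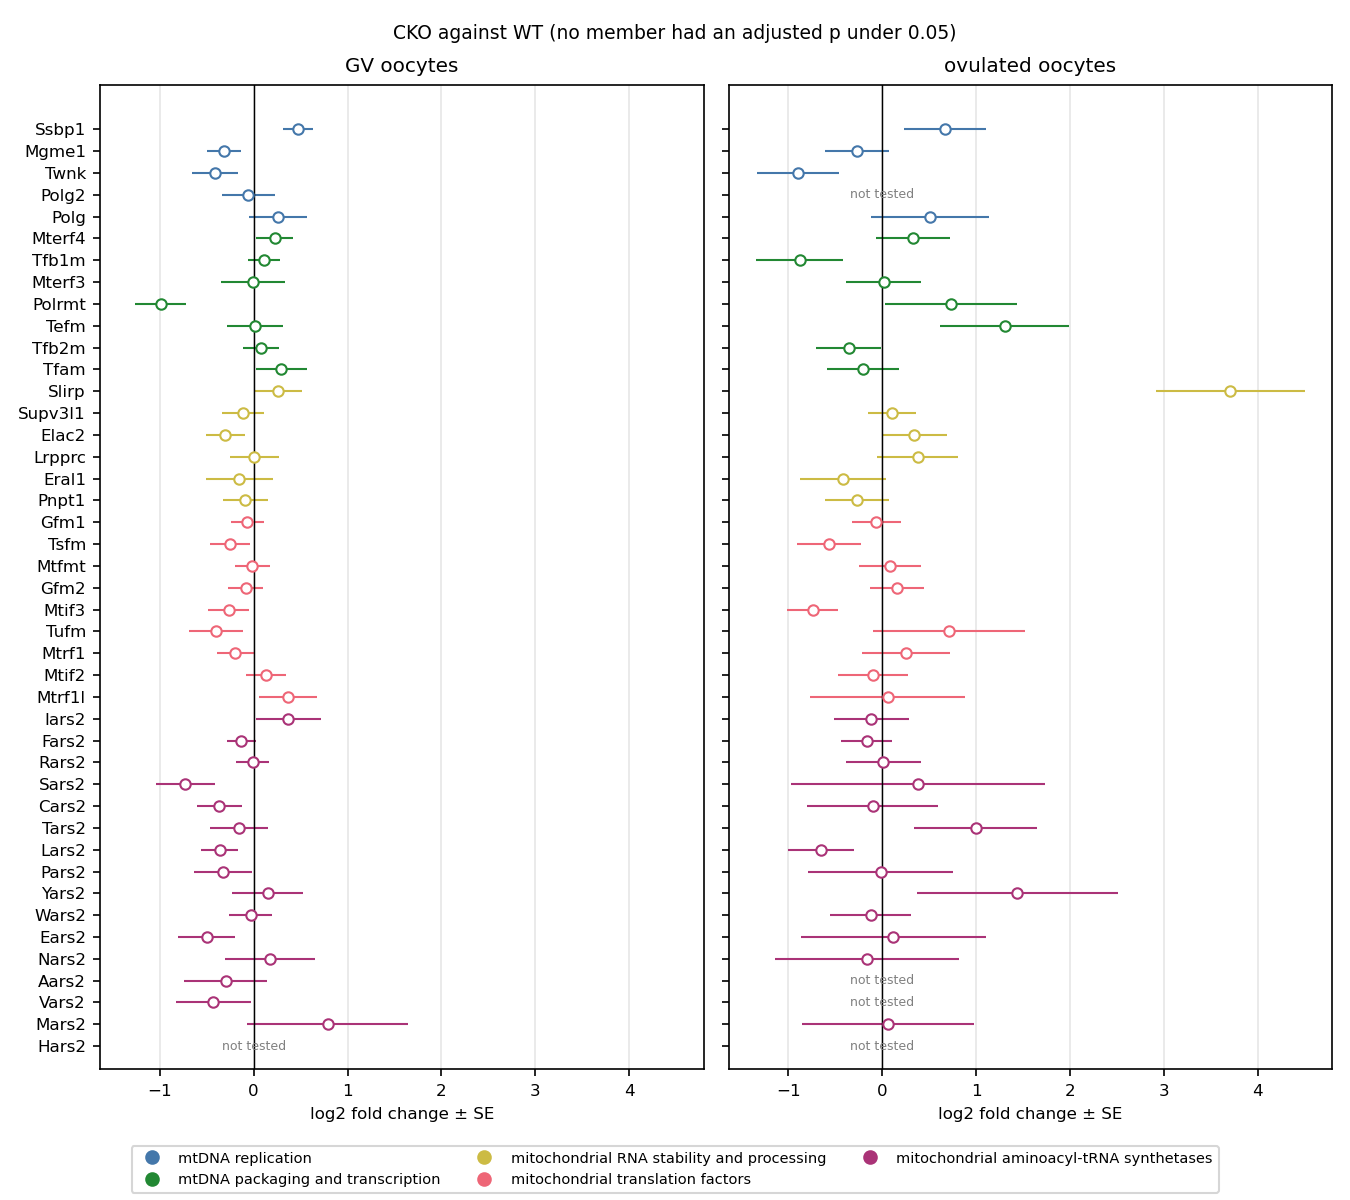
Log2 fold change of CKO against WT oocytes (x axis, ± SE) of each gene in GV (left) and ovulated oocytes (right), coloured by role. All points lie within 1 of 0 in GV oocytes, where Polrmt lies lowest, and Slirp lies farthest right in ovulated oocytes at 3.71.

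First by unadjusted p in GV oocytes was Polrmt, whose log2 difference was -0.99 ± 0.27 (adjusted p = 0.639, edgeR). The libraries overlapped, since the lowest GV WT library at 21.4 CPM lay below the CKO libraries at 23.0 and 22.2. Ssbp1 followed at 0.47 ± 0.16 (adjusted p = 0.830), and here all 4 CKO libraries lay above all 4 WT libraries. Sars2 was at -0.73 ± 0.32 (adjusted p = 0.834), with overlapping libraries. Groups that did not overlap were found for 3 of 42 genes in GV oocytes, against 3.65% of all genes: Ssbp1 higher, and Mgme1 and Lars2 lower, in CKO. The last pair was named after its values were seen.

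In ovulated oocytes Slirp came first by unadjusted p. Its libraries, given above, ran from 0.815 to 1.43 CPM in WT and from 2.26 to 34.3 CPM in CKO, a log2 difference of 3.71 ± 0.79 or 13.1-fold (adjusted p = 0.524 by edgeR), so that all 3 CKO libraries were higher but did not pass over all genes. DESeq2 gave an adjusted p of 0.000122, and edgeR gave 0.0353 with all 14 libraries in 1 fit and 0.00831 without ovulated CKO replicate 3. Ovulated CKO replicates 1 and 2 were likewise above replicate 3 and above every WT library in 8 of the 12 oocyte genes, among them Figla (12.99, 10.08 and 0.505 CPM in replicates 1, 2 and 3, against 0.638 to 1.60 in WT) and Zp2 (331.5, 442.6 and 91.5, against 78.8 to 95.4). The same order was found for 7 of the 39 genes described here (17.9%) and 17.7% of all genes tested. In the other oocyte genes, Gdf9, Ddx4, Dazl and Oosp1, replicate 3 was instead the highest CKO library. Gdf9, for example, measured 4819, 5140 and 6560 CPM in replicates 1, 2 and 3. The part of these libraries in the Slirp result was not tested. In GV oocytes the log2 difference of Slirp was 0.26 ± 0.25 (adjusted p = 0.882), with overlap. Slirp overlaps Snw1, a splicing factor gene on the opposite strand, and 76.9% of its exon bases in the RefSeq range are also exon of Snw1. Whether the counting used strand was not given, so reads of the pair cannot be told apart. Snw1 itself measured 73.7, 95.3, 53.1 and 125 in GV WT, 87.9, 92.5, 51.2 and 119 in GV CKO, 239.6, 134 and 187 in ovulated WT and 107, 99.8 and 134 CPM in ovulated CKO libraries. Its log2 difference in ovulated oocytes was -0.73 ± 0.29 (adjusted p = 0.603, edgeR). The part of Snw1 reads in the Slirp result was not tested.

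Mtif3 was the other gene under an unadjusted p of 0.05 in ovulated oocytes, at -0.74 ± 0.27 (adjusted p = 0.579, edgeR), with all 3 CKO libraries below all 3 WT libraries. It shares 29.4% of its exon bases with Gtf3a on the opposite strand, whose log2 difference there was -0.22. Twnk came next at -0.90 ± 0.44 (adjusted p = 0.680), with overlap. Groups without overlap were found for 5 of 39 genes, against 10.6% of all genes: Tefm, Slirp and Tars2 higher, and Mtif3 and Lars2 lower, in CKO. Tefm, Tars2 and Lars2 were named after their values were seen. Lars2, the leucyl enzyme, had no overlap at either stage and was lower in CKO at each, as 1 of the 39 genes tested within both stages, against 0.401% of all 11478 such genes in 1 direction. It measured 9.18, 11.5, 9.28 and 9.19 in GV WT, 8.71, 7.47, 6.76 and 7.62 in GV CKO, 9.10, 7.18 and 9.57 in ovulated WT and 5.61, 5.97 and 5.05 CPM in ovulated CKO libraries. Its log2 differences were -0.36 ± 0.20 (adjusted p = 0.834) in GV and -0.65 ± 0.35 (adjusted p = 0.705) in ovulated oocytes by edgeR, and neither passed.

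Of the other genes named whatever their values, beside Polrmt, Twnk and Slirp above, Tfam differed between CKO and WT by log2 0.29 ± 0.27 in GV and -0.20 ± 0.38 in ovulated oocytes (adjusted p = 0.870 and 0.906, edgeR). Polg differed by 0.26 ± 0.31 and 0.51 ± 0.63 (adjusted p = 0.9002 and 0.858). Eral1 differed by -0.15 ± 0.35 and -0.42 ± 0.46 (adjusted p = 0.949 and 0.838), a statement on its message and not on the protein that CLPXP degrades. Lrpprc differed by 0.01 ± 0.26 and 0.38 ± 0.43, and Tufm by -0.40 ± 0.29 and 0.71 ± 0.81. Each of these values of Tfam, Polg, Eral1, Lrpprc and Tufm was smaller than 2 of its standard errors. By role, the median differences in GV oocytes were -0.06, 0.08, -0.10, -0.09 and -0.16 for replication, packaging and transcription, RNA, translation factors and synthetases, and 0.12, 0.02, 0.22, 0.06 and -0.01 in ovulated oocytes. None of the other 77 pathway genes tested in GV and 71 in ovulated oocytes passed edgeR's test (3 and 5 at an unadjusted p under 0.05).

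The difference between the stages in the effect of Clpx loss was tested as an interaction over all 14 libraries. None of 42 genes passed edgeR's test, against 1 of 13158 genes (0.0076%), with 6 of 42 and 1205 of all genes at an unadjusted p under 0.05. DESeq2 called 1, Slirp, and limma-voom called 0. The median was 0.06, against 0.00 over all genes (0.31 against 0.25 with total counts). Slirp had a difference of 3.51 ± 0.82 (adjusted p = 0.280 by edgeR, and 0.00894 by DESeq2). Without ovulated CKO replicate 3, the library with the lowest Slirp level of its group, edgeR's adjusted p was 0.00100. Polg2 followed at -3.01 ± 1.10 (adjusted p = 0.405) and Aars2 at 3.27 ± 1.21 (adjusted p = 0.409), both on counts close to 0 in ovulated oocytes. Polrmt, lower in CKO in GV oocytes and higher in ovulated oocytes by its estimates, gave 1.75 ± 0.65 (adjusted p = 0.409). Eral1 gave -0.26 ± 0.57 (adjusted p = 0.948), so its stage changes in WT and CKO oocytes were not shown to differ.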

How the data were processed

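Libraries of mouse GV and ovulated oocytes were made with SMART-Seq2, per the labels' protocols. The authors deposited a table of expected counts per gene and a table of FPKM for each stage. The build was mm10, per the submitters' processing notes, and the aligner, counter, annotation and use of strand were not given in the sources used here. The deposited expected counts were rounded to whole numbers, and the tables were joined by gene ID (16417 shared genes, 241 with another symbol). All sample columns were mapped, and 0 other columns were left out.

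Genes were kept with filterByExpr (minimum count 10), scaled by TMM and tested with edgeR 4.0.16 (quasi-likelihood F test, R 4.3.3), within each stage for CKO against WT and over all 14 libraries for the stage comparisons and the interaction. P-values were adjusted by Benjamini and Hochberg over all genes tested, with a threshold of 0.05. The standard error was the absolute log2 fold change divided by the square root of F. CPM values use TMM library sizes of the 14-library fit. DESeq2 1.42.0, limma 3.58.1 (voom, and log2(FPKM + 1) for genes averaging at least 1 FPKM) and other scalings and filters were alternatives. The scripts were tested on simulated data.

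The genes with values per library were Tfam, Polg, Twnk, Polrmt, Lrpprc, Slirp, Eral1 and Tufm, the 3 smallest p-values where none passed, the 5 largest passing changes in each direction of a stage comparison, and the highest and lowest FPKM of each role in GV WT. Of other pathway genes, up to 2 per class with the smallest p in the WT stage comparison were named, and Gabpa and Yy1 as regulators whose letters were searched. The members and lists were chosen with earlier results of these data known. Promoters are from RefSeq (GRCm38.p6) and 3′ ends and exon overlaps from GENCODE M21, which matched 12707 of 13158 genes (96.57%). Depths of 25086506 to 28471453 counts per library limit counting error, not the spread between libraries.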

Additional observations from a re-analysis of the deposited data

Results flagged for a closer look

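In the groups of 4 GV libraries, a library was singled out where its gap to the nearest other library exceeded Dixon's 95% critical value (0.829 of the group's range). Over 46 groups, from 23 genes in WT and CKO, 2 libraries met it, and chance alone gives about 1 in 20, or 2.3. Polg, the catalytic subunit of the mtDNA polymerase, was at 6.47 CPM in GV CKO replicate 1 against 2.82 to 3.32 in the other GV CKO libraries (gap over range 0.863). Mtif2, the initiation factor, was at 9.29 CPM in GV WT replicate 2 against 6.32 to 6.68 in the others (0.879).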

How the results depend on the processing

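Of the values of the 43 genes that passed a test, 1 changed sign under an alternative: Gfm2 in the CKO stage comparison went from -0.56 to 0.04 with total counts. Of the stage calls, 15 of 32 in WT and 11 of 31 in CKO oocytes were made under every alternative, the 10 CPM limit included. A gene left untested by an alternative's filter counts as not called there. Twnk, Tefm, Tufm, Cars2, Pars2, Sars2 and Tars2 were called in both genotypes wherever tested, and only the 10 CPM limit left them out. Other calls were lost where tested, as given above. The count of genes called between CKO and WT was 0 in GV oocytes under every alternative, and their median ran from -0.12 to 0.01 as single libraries were left out. In ovulated oocytes the count was 1 (Slirp) under the DESeq2 Wald test, 1 in the fit of all 14 libraries and 0 to 1 as single libraries were left out (1 without ovulated CKO replicate 3), with medians from -0.07 to 0.06. For the stage difference it was 1 with DESeq2 and 0 to 1 as single libraries were left out, with medians from 0.03 to 0.20, and the median was 0.31 with total counts and 0.29 by limma on FPKM. The WT stage comparison called 27 to 33 as single libraries were left out (medians -1.41 to -1.19) and 19 of the 22 genes averaging at least 10 CPM. Its median was -0.93 with total counts, -1.44 with limma-voom and -0.86 by limma on FPKM. The CKO stage comparison called 27 to 31 (medians -1.49 to -1.07, the lowest without ovulated CKO replicate 1), and 18 of 22 genes averaging at least 10 CPM. Its median was -0.61 with total counts, -0.97 at 10 CPM or more and -0.51 by limma on FPKM. The cause of these shifts was not tested, apart from the smaller number of genes left by the 10 CPM limit.

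Over all genes, the calls in GV oocytes were 3, against 39 with DESeq2 and 6 without GV CKO replicate 1 or 4. In ovulated oocytes they were 1, against 101 with DESeq2, 64 in the 14-library fit, 3 without ovulated WT replicate 3 and 201 without ovulated CKO replicate 3. For the stage difference they were 1, against 65 with DESeq2, 498 without ovulated CKO replicate 3, 2 without ovulated WT replicate 3, and 0 at 10 CPM or more, with limma-voom, with limma on FPKM and in several fits without 1 library. At 10 CPM or more the stage comparisons called 5061 genes in WT and 4812 in CKO oocytes, against 8376 and 7332.

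The labels number replicates alike in WT and CKO but give no pairing. Deviations of same-numbered libraries had correlations of -0.264, 0.232, 0.376 and 0.464 in GV and -0.265, 0.367 and 0.03 in ovulated oocytes, and 2 of 4 and 1 of 3 WT libraries correlated best with their own number, so the numbers were not taken as pairs. With the replicate block the counts of these genes called were 0, 0 and 0 for the genotype and interaction tests, 33 for the WT stage and 30 for the CKO stage comparison.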

Other observations

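The spread between replicates of these genes was above that of all genes in GV WT and ovulated CKO, and below it in GV CKO and ovulated WT libraries. The median SD of log2(CPM + 1) over the 42 tested genes was 0.262 in GV WT, 0.269 in GV CKO, 0.348 in ovulated WT and 0.352 in ovulated CKO libraries, against 0.247, 0.309, 0.365 and 0.294 over the 13158 genes tested. The summed FPKM of the 43 genes averaged 1735 in GV WT, 1838 in GV CKO, 552 in ovulated WT and 641 in ovulated CKO oocytes, and Iars2 alone made up the larger part of it in the GV groups. The genes lie on 18 chromosomes, with 6 on chromosome 11 and 5 each on chromosomes 10 and 7.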
